A study of Mus musculus with 57 samples.

Results

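The genes described here belong to the Nodal signalling pathway: Nodal, Lefty1, Lefty2, Tdgf1, Acvr2b and Smad7. They were chosen by name and are 6 of the 21938 protein-coding genes of the annotation. Around each gene, every CUT&RUN peak whose summit lay within 50 kb of the transcription start site (TSS) was followed over the transcription factors and time points. This gave 652 of the 775358 peaks in 30 peak lists, and these merged into 125 of 202062 sites, where a site joins all peaks that overlap by at least 1 bp in any list. Of the 125 sites, 73 held a peak in 2 or more lists and 52 in 1 list. In GRCm38, Nodal lies at chr10:61417972-61425338, Lefty2 at chr1:180893108-180899103, Lefty1 at chr1:180935022-180938400, Acvr2b at chr9:119402118-119434995 and Smad7 at chr18:75367529-75395935, all on the plus strand, and Tdgf1 at chr9:110939603-110946158 on the minus strand. The TSSs of Lefty2 and Lefty1 lie 41914 bp apart on chromosome 1, so the surroundings of these genes overlap and share peaks.

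In CUT&RUN an antibody brings a nuclease to the chromatin that a protein occupies, and the DNA cut free is sequenced. The cells were mouse embryonic stem (ES) cells with a single copy of a transgene in which a TET-responsive element drives FLAG-tagged GATA6 together with the red fluorescent protein DsRed2. Lists of 15 groups with 2 replicates each were used. GATA6 was mapped at 0, 2, 4, 8 and 48 h of induction, each of NANOG and SOX2 at the first 4 of these times, and each of SOX17 and GATA4 at 24 h only, all in this line with 100000 cells per replicate. The remaining 27 of the 57 samples (blastocysts, histone marks and a control antibody) are not analysed here. At 0 h the cells were in 2i medium with LIF and no doxycycline. From 2 to 8 h they were in serum medium with LIF and 1 µg/mL doxycycline, and at 24 and 48 h they had received doxycycline for 12 h and then serum medium without it. Each comparison of 0 h with a later time therefore changes the medium together with GATA6, and these cannot be told apart. Comparisons of 2, 4 or 8 h with 24 or 48 h likewise change time together with the withdrawal of doxycycline, and these cannot be told apart. All groups carry the transgene, the cells are 1 line, and no line without the transgene is among the lists. The study describes its replicates as independent experiments, without saying for these lists whether a group's 2 replicates came from separate cultures, and p-values measure the spread between these lists. No expression values were used, so the identity of the cells was not checked against RNA markers.

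Nodal is a secreted ligand of the TGF-beta family. It binds activin receptors such as ACVR2B together with its co-receptor TDGF1 (also called Cripto), and the receptors activate SMAD2 and SMAD3, which bind DNA with partners such as FOXH1. LEFTY1 and LEFTY2 are secreted antagonists that are themselves induced by the pathway, and SMAD7 is an intracellular inhibitor of the receptors. The pathway acts in the early embryo, where NANOG and SOX2 mark the epiblast, and GATA6, GATA4 and SOX17 mark the primitive endoderm.

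Per the peak names and the deposited records, 6 lists disagree about their time: those recorded for GATA6 at 4, 8 and 48 h carry the names of the 48, 4 and 8 h samples. The time in the name is used throughout. The lists differed widely in size. GATA6 lists held 86 and 882 peaks at 0 h, 79358 and 62683 at 2 h, 47894 and 54281 at 4 h, 28676 and 30234 at 8 h, and 5933 and 9767 at 48 h. NANOG lists held 2255 to 52285 peaks, SOX2 lists 11540 to 52574, SOX17 lists 27328 and 41979, and GATA4 lists 8427 and 4006. The read depth is not in the lists, but the background coverage that the peak caller used could be recovered. It was 0.287 and 0.315 fragments per base in the GATA6 0 h lists and 0.928 to 1.34 in the later GATA6 lists, so the 0 h lists could show only peaks of at least 4.56- to 4.66-fold at that background.

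The sequences at 4 of the 6 sites with a peak in both NANOG 0 h lists are shown first, because the same sites reappear in the GATA6 and SOX2 lists described further on. The 4 were chosen after their values were seen, and the sites near Smad7 and Acvr2b are not shown. A site is named by the distance from the TSS of its strongest GATA6 2 h summit, or of its strongest summit where GATA6 had none at 2 h, and the NANOG summit of the Tdgf1 site lay 377 bp from that summit. Each sequence is 201 bases around the NANOG summit, given 5′ to 3′ on the plus strand of GRCm38. Capitals mark matches, on either strand, to letters known from each kind of factor. For GATA factors these are AGATAA with its variant AGATAG, and TGATAA with its variant TGATAG. For SOX factors they are ACAAAG with its variant ACAATG, for the octamer ATGCAAAT with its variant ATGCTAAT, and for FOXH1 TGTGGATT with its variant TGTGTATT. On the plus strand a match to the other strand reads as its reverse complement.
Nodal site 1.8 kb upstream, NANOG 0 h summit, chr10:61415993-61416193: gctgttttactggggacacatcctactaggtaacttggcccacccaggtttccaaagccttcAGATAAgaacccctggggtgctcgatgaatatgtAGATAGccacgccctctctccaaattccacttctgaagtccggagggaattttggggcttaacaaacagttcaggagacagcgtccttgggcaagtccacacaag
Lefty2 site 4.3 kb upstream, NANOG 0 h summit, chr1:180888786-180888986: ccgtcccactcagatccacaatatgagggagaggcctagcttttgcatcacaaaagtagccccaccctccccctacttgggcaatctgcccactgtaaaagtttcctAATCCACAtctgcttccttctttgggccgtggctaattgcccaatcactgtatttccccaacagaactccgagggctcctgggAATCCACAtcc
Lefty1 site 10.1 kb upstream, NANOG 0 h summit, chr1:180924786-180924986: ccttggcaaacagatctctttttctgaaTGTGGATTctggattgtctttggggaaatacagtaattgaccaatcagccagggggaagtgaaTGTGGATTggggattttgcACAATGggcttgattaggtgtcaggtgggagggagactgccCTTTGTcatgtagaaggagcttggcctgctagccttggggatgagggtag
Tdgf1 site 1.6 kb upstream, NANOG 0 h summit, chr9:110947255-110947455: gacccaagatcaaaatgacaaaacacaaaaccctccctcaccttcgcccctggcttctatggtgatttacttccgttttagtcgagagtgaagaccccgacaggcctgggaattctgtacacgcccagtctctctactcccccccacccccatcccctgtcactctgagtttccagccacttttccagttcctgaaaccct
The windows of Lefty2 and Lefty1 each held the FOXH1 letters in 2 places, and the Lefty1 window also held SOX letters in 2 places. FOXH1 letters were thus found in 2 of the 6 NANOG 0 h windows near these genes, and in 4.29% of all 7574 NANOG 0 h windows. The Nodal window held GATA letters in 2 places, which 32.7% of all such windows have in at least 1, and the Tdgf1 window had none of the listed letters. SOX letters were in 50.4% of all NANOG 0 h windows and the octamer in 9.33%, against 1 and 0 of the 6.

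The second set shows GATA6 sites that were seen after induction and had no NANOG peak in either 0 h list.
Lefty1, 17.7 kb upstream, GATA6 2 h summit, chr1:180917209-180917409: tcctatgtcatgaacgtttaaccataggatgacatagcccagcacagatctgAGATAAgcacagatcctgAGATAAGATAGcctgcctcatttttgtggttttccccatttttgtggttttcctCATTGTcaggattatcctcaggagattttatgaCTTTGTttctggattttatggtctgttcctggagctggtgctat
Lefty1, 15.5 kb upstream, GATA6 2 h summit, chr1:180919416-180919616: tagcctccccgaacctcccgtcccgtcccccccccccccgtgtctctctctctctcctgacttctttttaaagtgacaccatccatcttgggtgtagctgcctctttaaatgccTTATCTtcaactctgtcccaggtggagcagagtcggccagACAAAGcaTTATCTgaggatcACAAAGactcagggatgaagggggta
Tdgf1, 3.2 kb upstream, GATA6 2 h summit, chr9:110949269-110949469: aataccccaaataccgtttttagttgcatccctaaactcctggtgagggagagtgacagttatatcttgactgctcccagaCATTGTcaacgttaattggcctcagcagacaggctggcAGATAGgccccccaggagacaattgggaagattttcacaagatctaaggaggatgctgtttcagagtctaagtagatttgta
Lefty2, 8.8 kb upstream, GATA6 2 h summit, chr1:180884216-180884416: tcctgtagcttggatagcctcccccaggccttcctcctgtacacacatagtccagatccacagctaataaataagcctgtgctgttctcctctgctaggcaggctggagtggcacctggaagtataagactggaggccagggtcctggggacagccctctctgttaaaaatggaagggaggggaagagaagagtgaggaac
The window 17.7 kb upstream of Lefty1 held GATA letters in 3 places, of which the last 2 overlap, and SOX letters in 2. The window 15.5 kb upstream of Lefty1 held both kinds in 2 places each. A single GATA match and a single SOX match stood in the window 3.2 kb upstream of Tdgf1, and the window 8.8 kb upstream of Lefty2 had none of the listed letters. Over the 41 sites near the 6 genes with a peak in both GATA6 2 h lists, 19 windows (46.3%) held GATA letters and 18 (43.9%) SOX letters, against 54.2% and 33.9% of all 44768 such windows. FOXH1 letters were in 3 of the 41 (7.32%) and in 1.85% of all, and the octamer in 2 of 41 and 4.91% of all. The strongest GATA6 sites near Nodal, Tdgf1 and Lefty2 were among the windows without GATA letters. At the Nodal site this depends on the window: the 2 GATA matches in its NANOG 0 h window lie just outside the GATA6 window. These matches describe letters in a window and were not tested as binding sites.

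GATA6 was not detected near any of the 6 genes before induction and was present near each of them at 2 h. Such peaks were common: 19639 of the 21938 genes had at least 1 in the lists of 2 to 48 h. Both 0 h lists held 0 peaks near every one of the genes, where the mean over all genes was 0.0243 and the depth was the lowest of the GATA6 lists. At 2 h the lists held 65 and 54 peaks near the 6 genes, at 4 h 45 and 55, at 8 h 26 and 31, and at 48 h 3 and 8. The mean number at 2 h ran from 4 ± 0 (SD, n = 2) near Acvr2b to 23 ± 1.41 near Smad7, where the median over all protein-coding genes was 3.5. These means were above those of 53.3% (Acvr2b) and 99.5% (Smad7) of all genes.

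**Figure D1:**
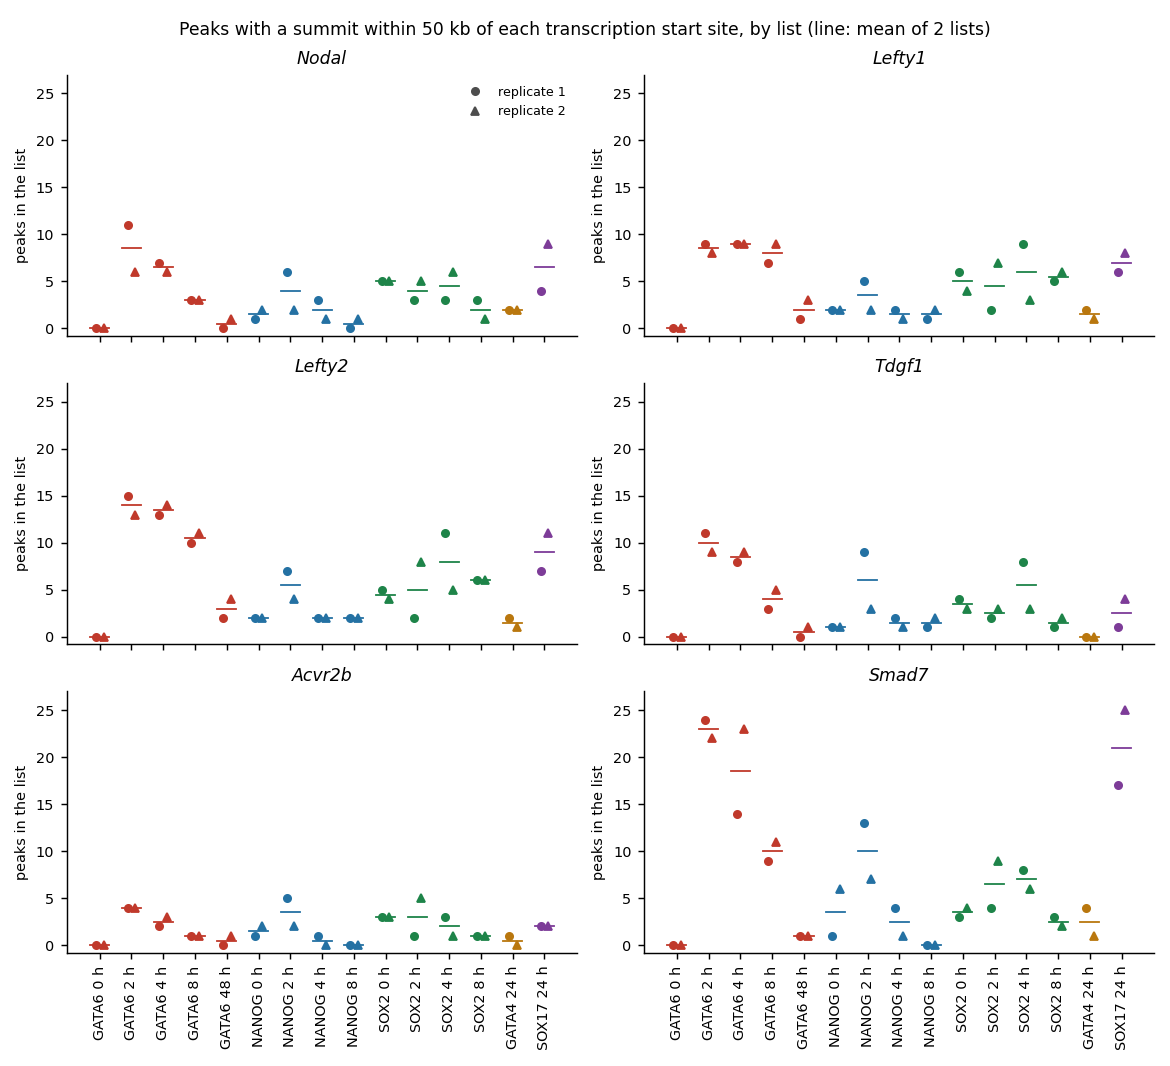
Number of peaks (vertical axis) with a summit within 50 kb of the TSS of each gene in the 30 lists, by factor and time (horizontal axis); circles are replicate 1, triangles replicate 2 and lines the mean of both lists. GATA6 is at 0 in both 0 h lists for all 6 genes and highest near Smad7 at 2 h (24 and 22 peaks), and SOX17 is also highest near Smad7 (17 and 25).

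Near Nodal, the GATA6 lists held 11 and 6 peaks at 2 h, 7 and 6 at 4 h, 3 and 3 at 8 h, and 0 and 1 at 48 h. Near Tdgf1 they held 11 and 9, 8 and 9, 3 and 5, and 0 and 1. Near Acvr2b the numbers were 4 and 4, 2 and 3, 1 and 1, and 0 and 1. These 3 genes encode the ligand, its co-receptor and a receptor. Near Smad7, the inhibitor, the lists held 24 and 22, 14 and 23, 9 and 11, and 1 and 1 peaks. Near the antagonist gene Lefty1 they held 9 and 8, 9 and 9, 7 and 9, and 1 and 3, and near Lefty2 15 and 13, 13 and 14, 10 and 11, and 2 and 4. Each later time had fewer peaks on average than the time before for all of the 6 genes but Lefty1. At 48 h the mean of 3 ± 1.41 near Lefty2 was above that of 97.6% of all genes, while Nodal, Tdgf1 and Acvr2b, at 0.5 ± 0.707 each, were above 57.5%.

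Over 2, 4, 8 and 48 h, a two-sided exact permutation test on log2(peak number + 1) gave p = 0.019 for Tdgf1 and Smad7, 0.0286 for Nodal, Lefty2 and Acvr2b, and 0.143 for Lefty1. After Benjamini-Hochberg adjustment over the 21938 genes this exact test called 0 genes (0%), with 34.2% of all genes at an unadjusted p under 0.05. The smallest p that 8 lists allow is 0.00952, which 2027 genes reached, and the smallest adjusted p was 0.095. Both 2 h lists lay above both 48 h lists for 6 of the 6 genes and for 71.8% of all genes. In limma, chosen after seeing the data and run on the 14863 genes with a mean of at least 1 peak per list, all 6 genes fell from 2 to 48 h, where 88.4% of the genes tested fell. The log2 differences with their SE were -3.58 ± 0.24 for Smad7 (adjusted p = 0.000166, limma), -2.95 ± 0.38 for Tdgf1 (0.00115), -2.70 ± 0.41 for Nodal (0.00197), -1.95 ± 0.26 for Lefty2 (0.00119), -1.82 ± 0.35 for Acvr2b (0.00468) and -1.75 ± 0.34 for Lefty1 (0.00485).

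When scaled to the size of the list, the differences from 2 to 48 h were smaller or turned direction for all 6 genes. The median over all genes was -1.61 on the log2 scale from 2 to 48 h, and the median over the 6 genes -2.32. Per 10000 peaks of the list, the medians were -0.19 and -0.37, and the Lefty genes, which share peaks, turned direction. On that scale Lefty2 was higher at 48 h by 0.66 ± 0.14 (SE; adjusted p = 0.00978, limma), and 14.3% of the genes passed in that direction, Lefty1 had 0.59 ± 0.22 (adjusted p = 0.0647), and Smad7 fell by 0.87 (SE 0.21; adjusted p = 0.0153), as did 38.9%. Nodal, Tdgf1 and Acvr2b, at -0.60, -0.76 and -0.14, did not pass the test per 10000 peaks. By 8 h only Acvr2b (-1.32 ± 0.35, adjusted p = 0.0314, limma) and Smad7 (-1.13 ± 0.24, adjusted p = 0.0179) of the 6 had fallen in peak number, against 48.3% of the genes tested. Per 10000 peaks no gene of the 6 passed at 8 h, where 3.45% of the genes tested fell and 0.357% rose.

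**Figure D2:**
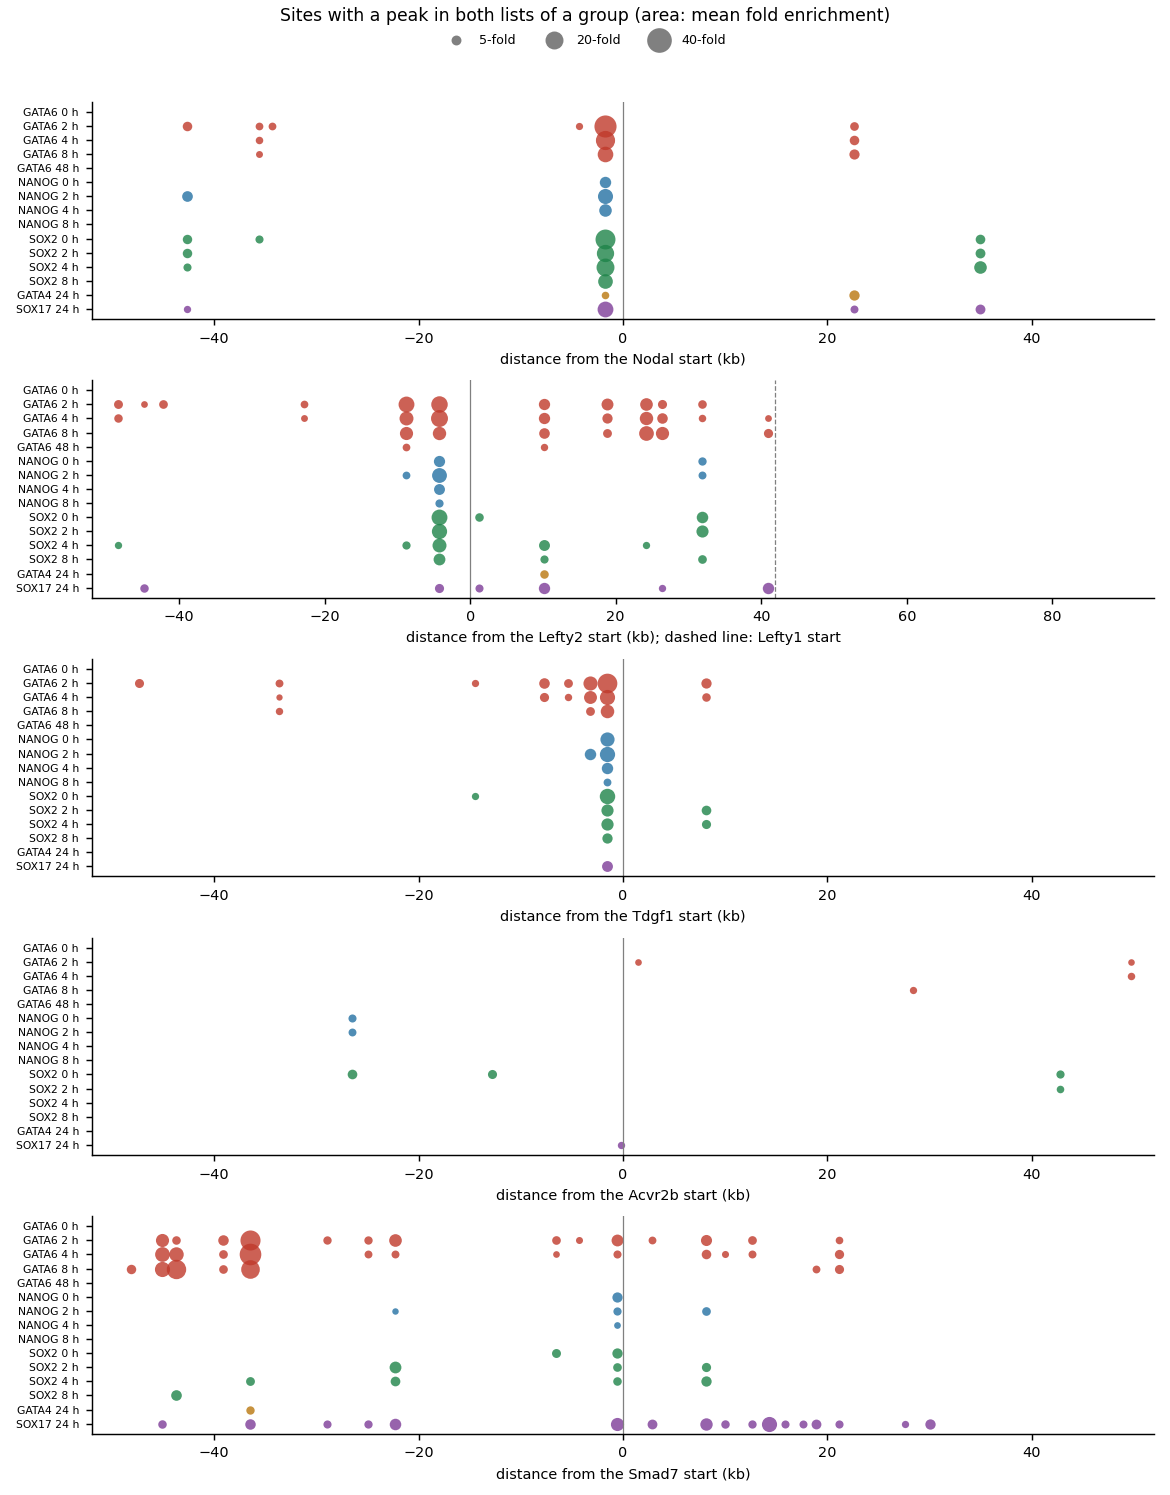
Sites with a peak in both lists of a group, by distance from the TSS (horizontal axis, kb, positive downstream) and by factor and time (vertical axis); the area of a point is the mean fold enrichment of the 2 lists. The sites 1.8 kb upstream of Nodal, 4.3 kb upstream of Lefty2 and 1.6 kb upstream of Tdgf1 hold GATA6, NANOG, SOX2 and SOX17. All groups of a site are drawn at the position that names the site, so distances between summits are not shown. Most GATA6 sites around Smad7 lie upstream, and GATA6 as well as SOX17 also holds sites within the gene.

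For each site the strongest peak of a list gives the fold enrichment. This is the authors' ratio of the signal at the summit to the local background, with a constant added to both. A shallower list therefore gives a lower fold for the same enrichment. Of the 41 GATA6 2 h sites, 14 lay near Smad7, 11 near Lefty2, 8 near Tdgf1, 6 near Nodal, 6 near Lefty1 and 2 near Acvr2b, and the 6 near Lefty1 are also among the 11 near Lefty2.

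Nodal, the ligand, had its strongest GATA6, NANOG and SOX2 site 1.8 kb upstream, in the merged site chr10:61415480-61418786 that also holds the TSS. GATA6 enrichment there was 41.9- and 33-fold at 2 h, 20.4 and 35.9 at 4 h and 15.9 and 21.4 at 8 h, and no peak was listed at 0 or 48 h. The mean of 37.5 ± 6.28 (SD, n = 2) at 2 h ranked 601 among 44768 sites, whose median was 6.92. NANOG was at 8.28- and 11.8-fold at 0 h, 22.9 and 11.9 at 2 h, 10 and 14.2 at 4 h, and 4.71 in 1 list at 8 h. Both 2 h NANOG lists lay above both 0 h lists, though 11.9 is only just above 11.8. SOX2 was at 32.2 and 28.9 at 0 h, 13.7 and 32.1 at 2 h, 37.3 and 11.9 at 4 h, and 13.1 and 20 at 8 h, so that the replicates at 2 and at 4 h differed more than the means of these times. The SOX2 0 h site ranked 211 of 17357. The SOX2 0 h summit lay 5 bp and the NANOG 0 h summit 106 bp from the GATA6 2 h summit. SOX17 was at 17.6 and 20.7 and GATA4 at 3.78 and 5.02 at 24 h, so this was a site of all 5 factors. The other GATA6 2 h sites near Nodal, of which those 42.7 and 35.6 kb upstream lie in introns of Pald1 and that 22.6 kb downstream in an intron of Eif4ebp2, had means of 4 to 6.98. At the site 22.6 kb downstream GATA4 reached 11.3 and 5.02, and at the site 34.9 kb downstream SOX2 was at 7.21 and 7.06 at 0 h and SOX17 at 7.41 and 7.53.

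The antagonist genes Lefty2 and Lefty1 shared the site with the highest enrichment, 4.3 kb upstream of Lefty2 (chr1:180887804-180889631, intergenic). GATA6 was at 21.8 and 20.1 at 2 h, 21.5 and 22.4 at 4 h and 12 and 15.4 at 8 h, with no peak at 0 or 48 h. NANOG was at 8.35 and 11 at 0 h, 16.9 and 16.8 at 2 h, 7.67 and 10.6 at 4 h, and 4.51 and 5.8 at 8 h. Thus NANOG was highest at 2 h and lowest at 8 h, in both cases without overlap with the other times. SOX2 was at 22.9 and 15.7 at 0 h, 10.9 and 24.8 at 2 h, 15.4 and 14.5 at 4 h, and 11 and 10.4 at 8 h, and SOX17 at 5.37 and 7.44. The NANOG 0 h, SOX2 0 h and SOX17 summits lay 68, 35 and 21 bp from the GATA6 2 h summit. The NANOG window of this site, shown above, holds FOXH1 letters, as does that of the site 10.1 kb upstream of Lefty1.

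The site 8.8 kb upstream of Lefty2 (chr1:180883709-180884782, intergenic) had no peak of any factor at 0 h and was held by GATA6 up to 48 h. GATA6 was at 22.8 and 15.9 at 2 h, 17.6 and 12.2 at 4 h, 16.2 and 10.4 at 8 h, and 4.08 and 5.07 at 48 h. NANOG appeared there at 2 h, at 5.41 and 3.9. The only other site of the 41 with GATA6 in both 48 h lists lay 10.1 kb downstream of the Lefty2 TSS. There GATA6 was at 10 and 9.49, 9 and 10.6, 6.65 and 10.7, and 3.62 and 4.73 at 2, 4, 8 and 48 h, GATA4 at 7.05 and 4.13 and SOX17 at 7.66 and 12.1. Over 2 to 48 h the exact permutation test on fold gave p = 0.0762 at the first and 0.143 at the second of these sites, where 40.9% of the 2342 sites with a peak in all 8 lists had p under 0.05.

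At 2 sites upstream of Lefty1 the GATA6 lists of 8 h were not both below those of 2 h. At 17.7 kb upstream GATA6 was at 13.7 and 10.9 at 2 h, 11.9 and 15.7 at 4 h, and 12.2 and 20.9 at 8 h. At 15.5 kb upstream it was at 6.93 and 5.73, 7.6 and 9.45, and 10.5 and 16.3, and 4.69 in 1 list at 48 h. The second site thus had both 8 h lists above both 2 h lists. The site 10.1 kb upstream was instead a NANOG and SOX2 site at 0 h. NANOG was there at 5.14 and 5.52 at 0 h and 4.82 and 4.87 at 2 h and not listed later, SOX2 at 9.33 and 11.1 at 0 h and 6.35 and 5.3 at 8 h, and GATA6 at 8.03 and 3.35 at 2 h. Next to the Lefty1 TSS, 1 kb upstream, SOX17 was at 8.19 and 11.8, and GATA6 was at 2.73 in 1 list at 2 h, 2.97 and 4.08 at 4 h and 6.97 and 5.91 at 8 h. SOX17 and SOX2 also held a site in an exon of Lefty2, 1.2 kb downstream of its TSS, at 5.49 and 4.53 and, for SOX2 at 0 h, 5.41 and 5.82.

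Tdgf1, the co-receptor gene, had its strongest site of all 3 early factors 1.6 kb upstream (chr9:110945380-110948662), again in the merged site that holds the TSS. GATA6 was at 32.5 and 27 at 2 h, 16.3 and 19 at 4 h, and 14.4 and 13.6 at 8 h, and not listed at 0 or 48 h. NANOG was at 14.2 and 16.6 at 0 h, 22.5 and 13 at 2 h, 8.58 and 11.4 at 4 h, and 5.08 and 4.35 at 8 h. Among 7574 NANOG 0 h sites this one ranked 365. SOX2 was at 16.2 and 20.3 at 0 h and 8.53 and 7.66 at 8 h, and SOX17 at 10.7 and 7.45. Here the summits stood further apart than at Nodal and Lefty2: the NANOG 0 h summit lay 377 bp and the SOX2 0 h summit 282 bp from that of GATA6 at 2 h. The site 3.2 kb upstream had GATA6 at 15 and 15.6, 13.7 and 11.9, and 6.98 and 5 at 2, 4 and 8 h, and NANOG at 9.94 and 10.3 at 2 h and at no other time.

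**Figure D3:**
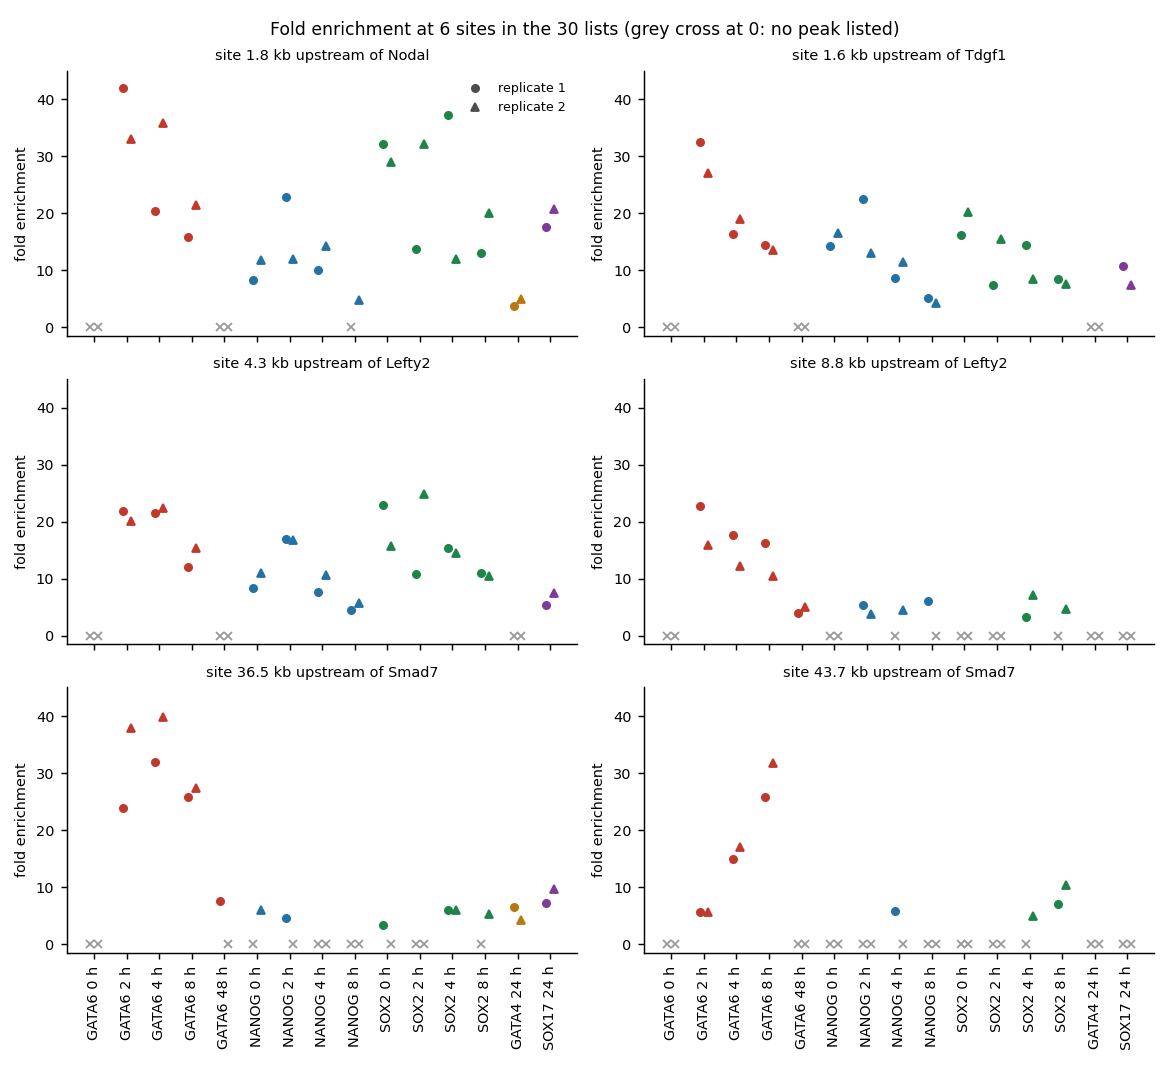
Fold enrichment over local background (vertical axis) at 6 sites in the 30 lists, by factor and time (horizontal axis); circles are replicate 1, triangles replicate 2 and grey crosses at 0 mark lists without a peak. At the Nodal, Tdgf1 and Lefty2 4.3 kb sites NANOG and SOX2 are present at 0 h and GATA6 from 2 to 8 h, at the Lefty2 8.8 kb site GATA6 extends to 48 h, and at the Smad7 43.7 kb site GATA6 climbs from 5.56 and 5.68 at 2 h to 25.8 and 31.8 at 8 h.

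Acvr2b, a receptor gene, had, among the 6 genes, the lowest fold at its strongest GATA6 2 h, NANOG 0 h and SOX2 0 h sites. The strongest GATA6 2 h site, 1.5 kb downstream in its own intron, was at 3.82 and 3 and in no other list. This is near the lowest fold that these lists show at their background coverage, 2.99 and 3.31. NANOG was found 26.5 kb upstream, in an intron of Xylb, at 5.2 and 4.83 at 0 h and 6.11 and 3.53 at 2 h, with SOX2 there at 8.35 and 5.96 at 0 h. At the TSS itself SOX17 was at 5.19 and 3.09. No site near Acvr2b held a peak in both NANOG lists at 4 or 8 h or in both GATA4 lists.

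Smad7, the inhibitor, was surrounded by the largest number of sites, 43, and no other protein-coding gene has a TSS within 50 kb of its own. The strongest GATA6 site lay 36.5 kb upstream (chr18:75329382-75331917). It was at 23.9 and 37.9 at 2 h, 32 and 39.8 at 4 h, 25.8 and 27.3 at 8 h, and 7.57 in 1 list at 48 h, with GATA4 at 6.49 and 4.27 and SOX17 at 7.26 and 9.67. A site 43.7 kb upstream (chr18:75323324-75324105) had the largest rise of the mean from 2 to 8 h among the 17 sites compared further on, with 5.56 and 5.68 at 2 h, 15 and 17.1 at 4 h, and 25.8 and 31.8 at 8 h, and no peak at 48 h. Its GATA6 2 h window held GATA letters in 8 places, some of which overlap. Of all GATA6 2 h windows, 54.2% held GATA letters in at least 1 place. The site 0.6 kb upstream, which holds the TSS, was the strongest NANOG and SOX2 0 h site. NANOG was there at 7.36 and 8.72 at 0 h, 3.7 and 6.69 at 2 h and 3.23 and 3.73 at 4 h, SOX2 at 8.29 and 7.99 at 0 h, and GATA6 at 13.9 and 7.79 at 2 h and 5.28 and 4.77 at 4 h. SOX17 held this site at 11.6 and 15.1. SOX17 also held a site 14.3 kb downstream, in an intron of Smad7, at 14.3 and 20.8, where no other list had a peak.

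The fold of GATA6 was compared where both lists of both times held a peak. From 2 to 8 h, 5 of 17 sites near the 6 genes had both 8 h lists above both 2 h lists, against 15.3% of the 16992 such sites of the genome. They were the Smad7 sites 43.7 kb upstream (mean 5.62 to 28.8), 45.1 kb upstream (13.2 to 17.6) and 21.1 kb downstream (4.45 to 6.41), the Lefty1 site 15.5 kb upstream (6.33 to 13.4) and the Nodal site 22.6 kb downstream (5.84 to 7.99). Lower without overlap were 7 of 17 sites, against 54.3%, among them those 1.8 kb upstream of Nodal (37.5 to 18.7), 1.6 kb (29.7 to 14) and 3.2 kb (15.3 to 5.99) upstream of Tdgf1 and 4.3 kb upstream of Lefty2 (20.9 to 13.7). The median log2 ratio was -0.22 over the 17 sites and -0.48 over all. From 2 to 4 h, 5 of 30 sites were higher (13.9% of all) and 9 of 30 lower (35.6% of all). The 2 h lists against which both later times are set are the same, so these counts are not independent.

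**Figure D4:**
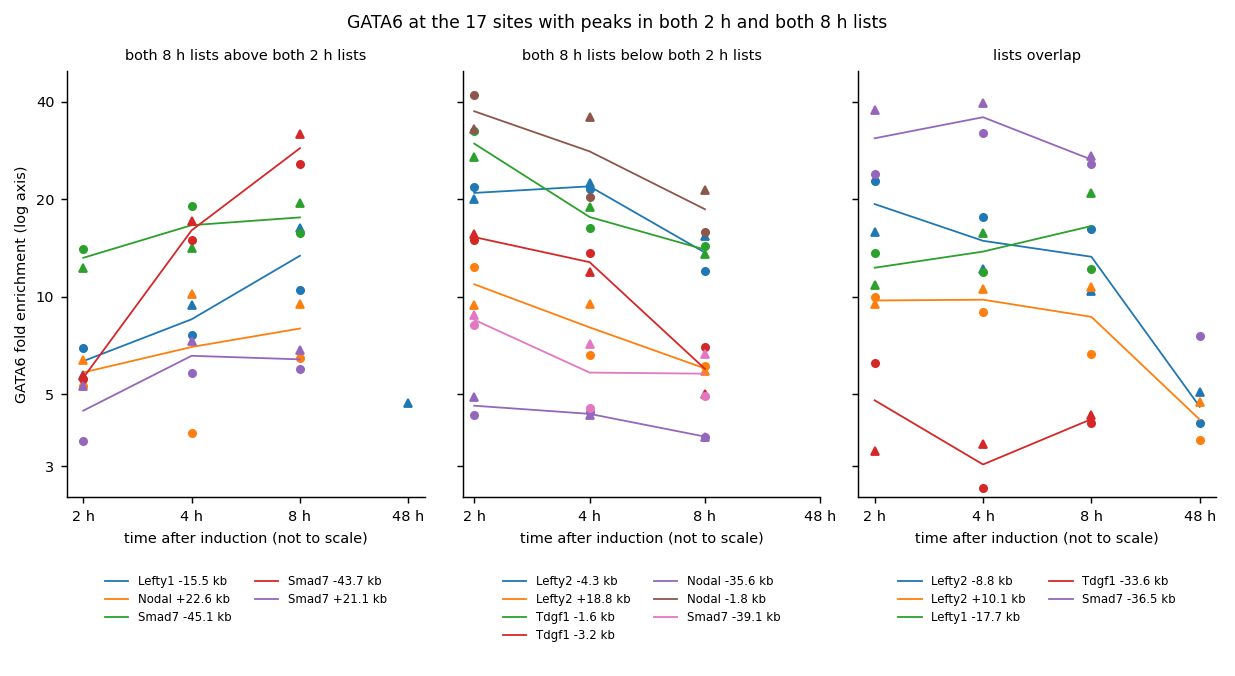
GATA6 fold enrichment (vertical, log axis) at 2, 4, 8 and 48 h (horizontal axis, not to scale) at the 17 sites with a peak in both 2 h and both 8 h lists; circles are replicate 1, triangles replicate 2, and lines join the means of times with 2 peaks. The left panel holds the 5 sites higher at 8 h, led by Smad7 43.7 kb upstream, the middle panel the 7 lower ones and the right panel 5 whose lists overlap.

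The next question was how far GATA6 at 2 h met sites that NANOG held before or after induction. Of the 41 GATA6 2 h sites near the 6 genes, the NANOG 0 h lists covered 5 (12.2%) and 10 (24.4%), a mean of 18.3 ± 8.62%, against 15.6% and 21.7% of all 44768 sites. In both lists NANOG 0 h was at 5 of the 41, against 13.2% of all. These were the sites 1.8 kb upstream of Nodal, 4.3 kb upstream of Lefty2, 10.1 kb upstream of Lefty1, 1.6 kb upstream of Tdgf1 and 0.6 kb upstream of Smad7. At 2 h the NANOG lists covered 21 (51.2%) and 14 (34.1%) sites, a mean of 42.7 ± 12.1%, against 61% and 40.3% of all. In both lists NANOG 2 h was at 10 of the 41, against 36.8% of all. At 8 h the NANOG lists covered 7.32% and 9.76%, against 4.05% and 2.84% of all, and the sites that kept NANOG in both lists were those 4.3 kb upstream of Lefty2 and 1.6 kb upstream of Tdgf1. The larger of the NANOG 2 h lists held 52285 peaks and the smaller 26742, and the larger list covered more of the 41 sites.

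The mean number of NANOG peaks near each of the 6 genes was highest at 2 h. Near Tdgf1 they held 1 and 1 peaks at 0 h, 9 and 3 at 2 h, 2 and 1 at 4 h, and 1 and 2 at 8 h. Near Smad7 they held 1 and 6, 13 and 7, 4 and 1, and 0 and 0. Near Lefty2 they held 2 and 2, 7 and 4, 2 and 2, and 2 and 2. Nodal, with 1 and 2, 6 and 2, 3 and 1, and 0 and 1, Lefty1, with 2 and 2, 5 and 2, 2 and 1, and 1 and 2, and Acvr2b, with 1 and 2, 5 and 2, 1 and 0, and 0 and 0, had 2 h lists that overlapped or touched those of 0 h. Both 2 h lists lay above both 0 h lists for 3 of the 6 genes and 41% of all, and above both 8 h lists for 5 of 6 (all but Lefty1) and 53.4% of all. The exact permutation test over 0 to 8 h gave p from 0.105 to 0.714 for the 6 genes, none under 0.05 against 10% of all genes, and 0 genes (0%) after adjustment.

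In limma on the 9448 genes with a mean of at least 1 NANOG peak per list, 0 of the 6 genes rose from 0 to 2 h, where 21% of genes did. The nearest were Lefty2 (1.08 ± 0.32 on the log2 scale, SE, adjusted p = 0.0577, limma) and Tdgf1 (1.66 ± 0.51, adjusted p = 0.0593). From 2 to 8 h, 5 of the 6 fell, as did 77.6% of genes: Smad7 (-3.40 ± 0.71, adjusted p = 0.00824, limma), Acvr2b (-2.08 ± 0.50, 0.0123), Nodal (-1.70 ± 0.61, 0.0397), Tdgf1 (-1.37 ± 0.51, 0.0445) and Lefty2 (-1.08 ± 0.32, 0.0236). Lefty1, at -0.79 ± 0.45, did not pass (adjusted p = 0.136). Acvr2b reached the mean of 1 peak per list only through its 2 h lists. Its fall from 2 h was thus favoured by the filter and is no support for a change. The 77.6% is over genes that passed the same filter. Over all 4 times limma called Smad7 (adjusted p = 0.0396) and Acvr2b (0.0457) of the 6, and 49.3% of the genes tested. The same limit holds for this call of Acvr2b. The median from 0 to 2 h was 0.79 over all genes and 0.99 over the 6, and per 10000 peaks 0.13 and -0.09. On that scale no gene of the 6 passed the test from 0 to 2 h or from 2 to 8 h. In each of these comparisons 0.328% of all genes tested passed. Nodal, Lefty1, Lefty2 and Acvr2b had values below 0 from 0 to 2 h (-0.10, -0.45, -0.07 and -0.17).

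NANOG fold could be set between 0 and 2 h at 6 sites. It was higher at 2 h without overlap at 2 of them, 4.3 kb upstream of Lefty2 (9.68 to 16.9) and 1.8 kb upstream of Nodal (10 to 17.4), against 38.8% of 5797 sites. It was lower at 2, 0.6 kb upstream of Smad7 (8.04 to 5.19) and 10.1 kb upstream of Lefty1 (5.33 to 4.85), against 7.97%. Over all 4 times the exact permutation test on fold gave p = 0.019 at the Lefty2 site (adjusted p = 0.0503) and 0.0476 at the Tdgf1 site 1.6 kb upstream (adjusted p = 0.0736), where 64.7% of the 272 sites with NANOG in all 8 lists had p under 0.05 and 0 passed after adjustment. Background coverage was 0.902 and 1.17 in the NANOG 0 h lists and 1.31 and 1.22 in the 2 h lists. The part of depth in these changes of NANOG fold was not tested.

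SOX2 was spread more evenly over time near these genes. The lists held 21 and 19 peaks near the 6 genes at 0 h, 12 and 32 at 2 h, 34 and 21 at 4 h, and 14 and 13 at 8 h, so the replicates of 2 h were further apart than any of the group means. Near Nodal the lists held 5 and 5, 3 and 5, 3 and 6, and 3 and 1, and near Lefty2 5 and 4, 2 and 8, 11 and 5, and 6 and 6. Near Lefty1 they held 6 and 4, 2 and 7, 9 and 3, and 5 and 6. At 8 h the mean of 6 ± 0 near Lefty2 was above that of 99.3% of genes. Near Tdgf1 the lists held 4 and 3, 2 and 3, 8 and 3, and 1 and 2, near Acvr2b 3 and 3, 1 and 5, 3 and 1, and 1 and 1, and near Smad7 3 and 4, 4 and 9, 8 and 6, and 3 and 2. Both 0 h lists lay above both 8 h lists for 3 of the 6 genes (Nodal, Tdgf1 and Acvr2b) and 36.9% of all. The exact permutation test gave p from 0.19 to 0.933, none of the 6 under 0.05 against 2.55% of all genes, and 0 genes (0%) after adjustment.

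In limma on 13965 genes, 0 genes (0%) fell from 0 to 8 h in SOX2 peak number after adjustment, with 25.7% at an unadjusted p under 0.05 in either direction, and the median difference was -0.50 over all genes and -0.62 over the 6. Per 10000 peaks the Lefty genes were higher at 8 h than at 0 h, Lefty2 by 1.17 ± 0.25 (SE, log2; adjusted p = 0.0282, limma) and Lefty1 by 0.99 ± 0.27 (adjusted p = 0.0481), and 3.14% of genes passed in that direction. The Lefty genes share peaks, so these results are not independent. Over all 4 times limma called 0 genes per 10000 peaks, with an adjusted p of 0.0891 for Lefty2 and 0.1 for Lefty1. The exact permutation test on that scale gave adjusted p = 0.438 and 0.51. In peak number Lefty2 had 0.35 and Lefty1 0.13, and when only peaks with a −log10 q of at least 5 were kept both were at -0.16. SOX2 fold was lower at 8 h than at 0 h without overlap at 4 of 4 sites (52.1% of 3786 sites) and higher at 0 of 4 (12%). These were the sites 1.8 kb upstream of Nodal (30.5 to 16.5), 4.3 kb upstream of Lefty2 (19.3 to 10.7), 1.6 kb upstream of Tdgf1 (18.3 to 8.09) and 10.1 kb upstream of Lefty1 (10.2 to 5.82). Over all 4 times the exact permutation test on fold gave p = 0.724, 0.371 and 0.219 at the first 3 of these, where 12.9% of 3260 sites had p under 0.05. Background coverage was 0.416 and 0.575 in the SOX2 0 h lists and 0.29 and 0.436 in the 8 h lists. The part of depth in these changes of SOX2 fold was not tested.

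At 24 h, SOX17 was found at many of the early GATA6 sites near these genes. The SOX17 lists covered 18 (43.9%) and 23 (56.1%) of the 41 GATA6 2 h sites, a mean of 50 ± 8.62%, against 28.3% and 36.3% of all. In both lists SOX17 was at 18 of the 41, against 25.4% of all, and 10 of these 18 were near Smad7. Near Smad7 the lists held 17 and 25 SOX17 peaks, above 99.9% of all genes. Near Nodal they held 4 and 9, near Lefty1 6 and 8, near Lefty2 7 and 11, near Tdgf1 1 and 4, and near Acvr2b 2 and 2. Of the 29 SOX17 sites, 4 had no GATA6 peak in any list, against 18% of 19082, and 2 of these were near Smad7. GATA4 was sparse: its lists held 9 and 4 peaks near the 6 genes, 0 and 0 near Tdgf1, and covered 12.2% and 9.76% of the 41 sites, against 11.1% and 6.75% of all. The GATA4 lists are named as filtered, and the filter is not given in the sources used here.

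By 48 h, when the medium no longer held doxycycline, GATA6 remained at few of these sites. Each 48 h list covered 3 of the 41 (7.32%), against 7.23% and 9.51% of all, and both covered 2, against 5.79%. At 8 h both lists covered 17 of the 41, against 38%, and the lists covered 46.3% and 51.2%, against 44.1% and 46.7%. At 4 h they covered 75.6% and 85.4%, against 70.1% and 76%. Both sites held at 48 h lay near Lefty2. If time is taken from the record, the lists called 48 h are those named 8 h, and the share becomes 48.8%.

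**Figure D5:**
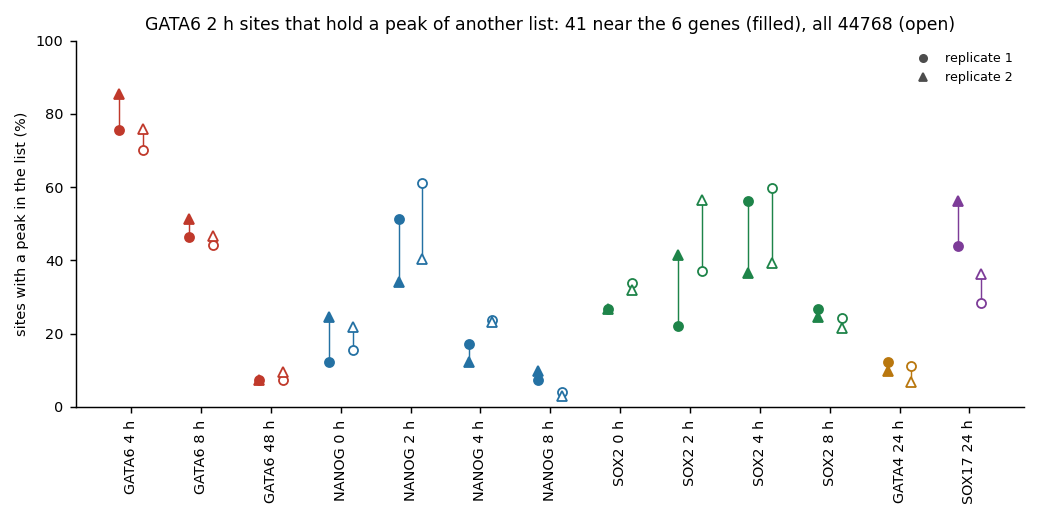
Share of GATA6 2 h sites (vertical axis, %) that hold a peak of each other list (horizontal axis), for the 41 sites near the 6 genes (filled) and all 44768 (open); circles are replicate 1 and triangles replicate 2, joined by a line. Both SOX17 lists are higher near the 6 genes (43.9% and 56.1%) than over all sites (28.3% and 36.3%), and both NANOG 8 h lists are too, while the GATA6 4, 8 and 48 h shares lie close to those of all sites.

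A list of 30 other genes of the pathway gave a comparison for the 6. It holds ligands, convertases, receptors, SMADs, their partners and inhibitors, and target genes, and its median GATA6 peak number at 2 h was 5.75, against 9.25 for the 6 genes and 3.5 for all genes. Both 2 h GATA6 lists lay above both 48 h lists for 26 of the 30, against 71.8% of all genes. In the exact permutation test 17 of the 30 had an unadjusted p under 0.05, against 34.2% of all. In limma 24 of the 26 that could be tested fell from 2 to 48 h, against 88.4% of all genes tested. For NANOG, 17 of the 30 had both 2 h lists above both 0 h lists, against 41% of all genes. From 0 to 2 h 3 of 17 tested rose in limma, against 21% of all genes tested. In the exact test 5 of 30 had p under 0.05, against 10% of all. For SOX2, 14 of the 30 had both 0 h lists above both 8 h lists, against 36.9% of all genes. Only 1 of the 30 had p under 0.05 in the exact test, against 2.55% of all. The most GATA6 2 h peaks were near Tgif1, which encodes a corepressor of SMAD2 and SMAD3 (27 ± 4.24), Smad3 itself (17 ± 2.83) and Pcsk6, which encodes a convertase that cleaves the Nodal precursor (14.5 ± 4.95).

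The protein-coding genes whose peak numbers over the 30 lists were most like those of each member, by Pearson r of log2(peak number + 1), were Cox7a2l and Crip2 for Nodal (r = 0.925 for both), Ccn2 (0.923) and Fgf21 (0.918) for Lefty1, and Creb3l2 (0.945) and 1700029F12Rik (0.939) for Lefty2. They were Neurl1a (0.932) and Atxn1 (0.928) for Tdgf1, Rbsn (0.947) and Fam53b (0.943) for Acvr2b, and Znrf2 (0.962) and Cyp2ab1 (0.952) for Smad7. All genes share the depth and size of the 30 lists, and the median r with all genes was already 0.629 to 0.672.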

How the data were processed

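Peak lists of 30 CUT&RUN libraries were used, 2 in each of 15 groups that the sample titles name. As its methods state, the authors mapped read pairs to mm10 with Bowtie2, removed blacklisted regions, kept duplicates, took fragments under 120 bp and called narrow peaks with MACS against a rabbit anti-rabbit control. Peak names carry 1 library each, so lists are separate replicates. The deposited fold is a ratio of the summit to the local background, with a constant added to both. The deposited −log10 p-value and −log10 q-value belong to each peak. All listed peaks had a q-value of at most 0.05. The deposited score was not used.

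Summits were assigned within 50 kb of GENCODE vM21 TSSs on GRCm38.p6, and overlapping peaks (1 bp) of all lists were merged into sites. Peak numbers were tested on log2(number + 1) by an exact permutation test of F over time points (105 arrangements of 8 lists, two-sided, Benjamini-Hochberg over 21938 genes) and, chosen after seeing the data, by limma 3.58.1. Both were also run on simulated numbers with known changes. The simulated lists did not differ in size as the real lists did, so the simulation does not cover differences in list size. Background coverage was recovered from fold and p-value pairs and stands for depth. Precision is limited to 2 lists per group. The alternatives were peaks per 10000 of the list, a −log10 q of at least 5, a distance of 20 kb, the time by the record, 0 h added for GATA6, a replicate block and leaving out each list.

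The genes, the pathway list and the sites described (for each gene the strongest GATA6 2 h, NANOG 0 h and SOX2 0 h sites and the one holding the TSS) were chosen with earlier results of these data known. Further sites named near a gene were chosen after their values were seen.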

Additional observations from a re-analysis of the deposited data

How the results depend on the processing

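Scaling peak numbers to 10000 peaks of the list turned the direction of several log2 differences: GATA6 from 2 to 48 h near Lefty1 (0.59) and Lefty2 (0.66), NANOG from 0 to 2 h near Nodal (-0.10), Lefty1 (-0.45), Lefty2 (-0.07) and Acvr2b (-0.17), and SOX2 from 0 to 8 h near Smad7 (0.41), with the same values in limma. For SOX2, keeping peaks with a −log10 q of at least 5 gave -0.16 near Lefty1 and Lefty2, and leaving out 1 SOX2 list at a time gave -0.11 (without 0 h replicate 2) to 0.37 near Lefty1. The number of genes called over time was 0 in each exact permutation test. For GATA6 it was 9096 with the 0 h lists added, all 6 genes among them, 12025 in limma and 7046 in limma per 10000 peaks. Adding 0 h brings in a group with few peaks and also more arrangements, and the cause was not tested. For NANOG it was 4658 in limma. The share of GATA6 2 h sites with a GATA6 48 h peak was 4% with a −log10 q of at least 5 and 48.8% with the time by the record. Leaving out 1 list at a time gave 5.88% to 7.32% for this share, 12.2% to 24.4% for NANOG at 0 h, 33.1% to 51.2% for NANOG at 2 h, and 0 to 0 genes called in all 3 tests.

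With a replicate block 0 genes were called, as without it, and the block leaves the differences between times as they are in this balanced design, so it says nothing about stability. The replicate numbers do not pair the lists: the deviations of same-numbered lists from their group means correlated at -0.164 to 0.064 across genes.

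The 0 h GATA6 lists were the shallowest, so a weak GATA6 peak at 0 h was not detectable at this depth. The smallest p of the exact test, 0.00952, was reached by 2027 genes for GATA6, 261 for NANOG and 23 for SOX2, and the smallest adjusted p was 0.095, 0.325 and 0.794. A list that holds more peaks gives higher numbers and shares, and its part in the results was not tested.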
